A study of Mus musculus with 6 samples.

Results

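The 10 genes described here encode the receptors of the SLAM family and the small SAP adaptors that bind their tails, and they were taken by symbol from the 14490 genes listed in the deposited mRNA-seq values. All 10 were found: the receptor genes Cd244, Slamf6, Slamf7, Slamf1, Ly9, Cd48 and Cd84, and the adaptor genes Sh2d1a, Sh2d1b1 and Sh2d1b2. mRNA was sequenced from splenic NK cells of C57BL/6 mice, which per the study's methods were between 6 and 10 weeks old and whose NK cells were purified by flow sorting. The WT group carried Mettl3fl/fl, in which both copies of Mettl3 are flanked by loxP sites, and the cKO group was Ncr1Cre-Mettl3fl/fl, with 1 Cre allele (Ncr1Cre/+) per the study's methods, in which Cre made from the Ncr1 locus removes Mettl3 in cells that have switched on this NK-cell gene. There were 3 samples of each genotype. Both groups carried the floxed alleles and only cKO carried Cre, so an effect of Cre or of the altered Ncr1 locus cannot be told apart from that of Mettl3 loss. Neither the labels nor the methods say whether each sample came from a separate mouse or from pooled mice, so the p-values measure only the spread between these samples.

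SLAM family receptors are immunoglobulin-like proteins on blood cells, most of which bind a copy of themselves on a neighbouring cell. CD244, also called 2B4, instead binds CD48, which is held in the membrane by a lipid anchor and has no signalling tail. The tails of the other receptors carry tyrosine motifs that recruit SAP (Sh2d1a) or the EAT-2 proteins (Sh2d1b1 and, in the mouse, Sh2d1b2), and in NK cells these adaptors turn the receptors toward activation, while in their absence the same motifs can recruit inhibitory phosphatases. METTL3 is the enzyme that writes N6-methyladenosine (m6A) on mRNA.

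Values are normalized counts, the counts of a gene divided by the DESeq2 size factor of the sample. Between 55965515 and 71464042 reads fell on the listed genes of a sample. The genotypes were compared on log2(normalized count + 1) by two-sided limma tests, whose p-values were adjusted over all 14490 genes by the Benjamini-Hochberg method, and a gene is said to have risen or fallen in cKO where its adjusted p was under 0.05. Mettl3 itself fell, from 1251 ± 56.0 to 334 ± 61.9 normalized counts (SD, n = 3 each, log2 fold change −1.92, standard error 0.0986, limma adjusted p = 2.32e-14). The markers checked against the labelled cell type comprised 49 listed genes, none at 0 in any sample. The 10 NK-cell markers summed to between 951767 and 985784 normalized counts in WT and between 906530 and 949445 in cKO. Of these markers, 2 were higher and 6 lower. The lower ones included Ncr1 (means of 22394 in WT and 16918 in cKO), the locus that carries Cre in cKO. B-cell markers summed to between 1248 and 1266 in WT and to between 1702 and 1734 in cKO, with 5 of 6 higher and 0 lower, while 1 of 7 listed T and NKT markers, Cd3g, fell (sums of 3497 to 3972 in WT and 3178 to 3384 in cKO). Of the other listed markers, 2 of 5 myeloid genes rose and 1 fell, 1 of 6 ILC1 genes rose, 1 of 6 genes of mature NK cells rose and 2 fell, 2 of 5 genes of immature NK cells fell, and 0 of 3 erythroid genes and 0 of 1 platelet gene passed the test. The part of these cell types in the differences described below was not tested. In sorted bulk samples, fewer cells of a type and less RNA per cell cannot be told apart.

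Of the 10 genes, 6 passed the test, which is 60%, against 36.6% of all genes. Cd48 and Ly9 rose, 2 genes of 10, against 17.8% of all genes, and Cd244, Slamf7, Sh2d1a and Sh2d1b1 fell, 4 of 10, against 18.8%. The samples of the genotypes did not overlap for 7 of the 10 genes, against 45.7% of all genes. For each of these 7 genes the exact permutation test, two-sided, gave p = 0.1, the smallest value that 3 samples against 3 allow. Among the 6 genes that passed, log2 fold changes ran from −0.37 for Sh2d1a to 0.34 for Cd48. The median absolute log2 fold change was 0.19 for the 10 genes and 0.17 for all genes. With the samples scaled to equal totals, 3 of the 10 genes rose and 3 fell, and over all genes the share of higher among the calls moved from 48.5% to 63.4%. Under that scaling the median log2 fold change over all genes was 0.051, in place of 0.0014.

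**Figure D1:**
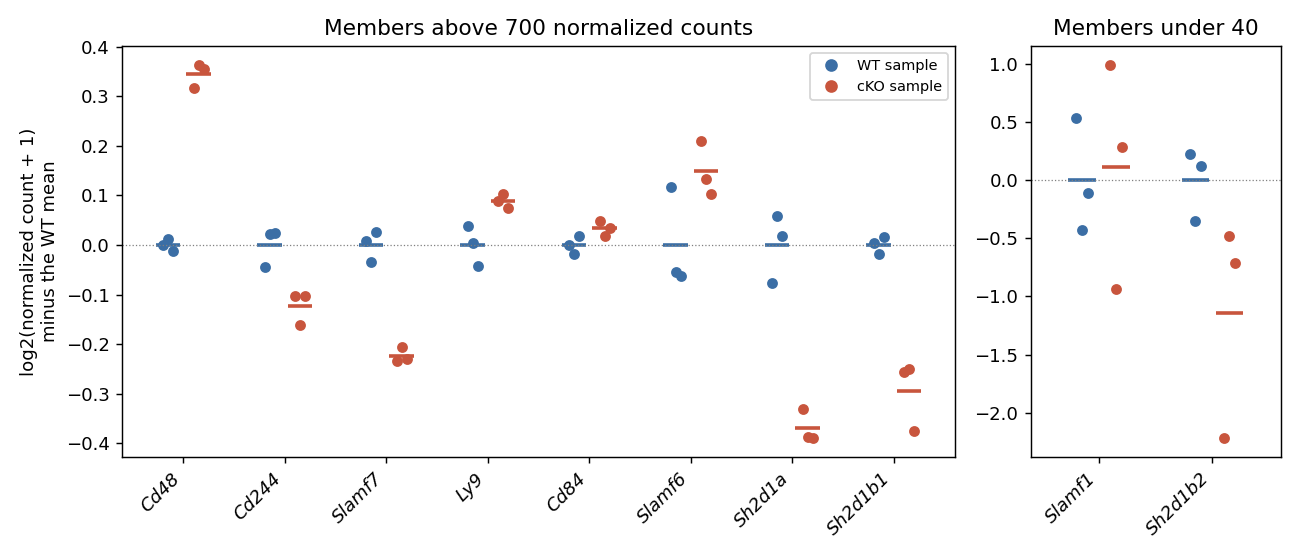
Log2(normalized count + 1) of the 10 genes minus the WT mean of each gene, in the WT and cKO samples (1 point each, horizontal bars for the means of 3 samples). The points of the genotypes are separate for 7 genes and overlap for Cd84, Slamf6 and Slamf1.

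Among the receptors and their ligands, Cd48 rose the most. Cd48 (chr1:171682009-171705258, plus strand of GRCm38), the ligand of CD244, stood at 5843, 5896 and 5798 normalized counts in WT replicates 1 to 3 and at 7277, 7522 and 7478 in cKO replicates 1 to 3, the order kept for all genes that follow. The lowest cKO sample lay well above the highest WT sample, and the spread within either genotype was small beside the gap. Cd48 averaged 5846 ± 49.2 in WT and 7425 ± 131 in cKO (SD, n = 3 each), 27.0% higher (log2 fold change 0.34, standard error 0.0350, limma adjusted p = 1.29e-08). B cells also express Cd48, and the B-cell marker sum was higher in cKO as given above. The part of B cells in the rise of Cd48 was not tested.

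Cd244, the receptor for CD48, moved the other way. Cd244 (annotated as Cd244a, chr1:171559193-171609746, plus strand) had 9496, 9949 and 9961 normalized counts in the WT samples and 9129, 8762 and 9120 in the cKO samples. The highest cKO sample was below the lowest WT sample, although the gap was narrower than the range within WT. Cd244 fell by 8.14%, from 9802 ± 265 to 9004 ± 209 normalized counts (SD, n = 3 each, log2 fold change −0.12, standard error 0.0343, limma adjusted p = 0.00598). The call was lost when samples were scaled to equal totals (log2 fold change −0.073, limma adjusted p = 0.101) and with limma-voom (−0.073, limma adjusted p = 0.0972).

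The ratio of Cd244 to Cd48 within a sample does not depend on the scaling. Its log2 value was 0.70, 0.75 and 0.78 in the WT samples and 0.33, 0.22 and 0.29 in the cKO samples, without overlap. The mean log2 ratio was 0.75 ± 0.041 in WT and 0.28 ± 0.054 in cKO (SD, n = 3 each), a difference of −0.47 (exact permutation test, two-sided, p = 0.1). Per kilobase of exon, Cd244 stood on average at 0.409 times Cd48 in the WT samples and at 0.296 times in the cKO samples.

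The regions around the start sites of this receptor and its ligand are shown because the genes are a binding pair on the same strand, less than a megabase apart, and moved in opposite directions. They span 250 bases before to 50 bases after the RefSeq start, on the plus strand of GRCm38.p6, at chr1:171558943-171559242 for Cd244a and chr1:171681742-171682041 for Cd48. Capitals mark the letters GGAA or TTCC, the core bound by ETS factors, TGTGGT or ACCACA, bound by RUNX factors, and TCACACC or GGTGTGA, a half-site of T-box factors such as T-bet and Eomes. Both strands were searched.
Cd244a: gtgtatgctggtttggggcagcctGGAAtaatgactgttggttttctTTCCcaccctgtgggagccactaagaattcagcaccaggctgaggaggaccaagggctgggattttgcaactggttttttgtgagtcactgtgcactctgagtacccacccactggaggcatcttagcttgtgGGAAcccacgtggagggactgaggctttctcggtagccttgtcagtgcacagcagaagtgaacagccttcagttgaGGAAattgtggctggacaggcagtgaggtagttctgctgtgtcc
Cd48: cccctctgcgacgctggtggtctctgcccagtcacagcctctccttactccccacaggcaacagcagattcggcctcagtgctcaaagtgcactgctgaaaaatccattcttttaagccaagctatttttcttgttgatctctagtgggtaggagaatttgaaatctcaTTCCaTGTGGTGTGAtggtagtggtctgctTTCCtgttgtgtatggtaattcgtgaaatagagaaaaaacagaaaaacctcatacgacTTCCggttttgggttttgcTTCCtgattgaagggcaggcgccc
The Cd244a window held 4 ETS cores and 0 of either other motif. The Cd48 window held 4 ETS cores, 1 RUNX match and 1 T-box match, the last 2 overlapping. Of 32851 RefSeq promoter windows of the same length, 95.98% held an ETS core, 16.76% the RUNX letters and 3.98% the T-box letters. These matches are letters in a window, and binding was not measured here.

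Slamf7 (chr1:171632403-171653035, minus strand) encodes CRACC, a self-binding receptor that works through EAT-2 in NK cells. It had 5694, 5525 and 5764 normalized counts in the WT samples and 4810, 4904 and 4827 in the cKO samples. The groups lay far apart relative to the spread within either. Slamf7 fell by 14.4%, from 5661 ± 123 to 4847 ± 50.3 normalized counts (SD, n = 3 each, log2 fold change −0.22, standard error 0.0371, limma adjusted p = 2.55e-05). Its exons share 423 bases (9.24%) with Gm37787, an antisense gene that had 39.7 ± 9.71 normalized counts in WT and 38.6 ± 11.0 in cKO (SD, n = 3 each). Whether reads were counted by strand is not given in the sources used here, so reads in the shared bases cannot be assigned to either gene.

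Ly9 (chr1:171588624-171607410, minus strand) encodes the self-binding receptor CD229 and lies within the span of Cd244 on the opposite strand, with 0 shared exon bases. It had 9375, 9153 and 8871 normalized counts in the WT samples and 9705, 9804 and 9616 in the cKO samples. All cKO samples were above all WT samples, by a margin smaller than the range within WT. Ly9 rose by 6.32%, from 9133 ± 253 to 9708 ± 94.3 normalized counts (SD, n = 3 each, log2 fold change 0.088, standard error 0.0337, limma adjusted p = 0.0407). B cells express Ly9 too. The call held when WT sample 1 was left out and was lost when any of the other 5 samples was, with adjusted p values of 0.0674 without WT sample 2, 0.179 without WT sample 3, 0.105 without cKO sample 1, 0.10 without cKO sample 2 and 0.0615 without cKO sample 3.

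The other 3 receptors did not pass the test. Cd84 (chr1:171839697-171890718, plus strand), another self-binding receptor, had 6649, 6561 and 6737 normalized counts in WT and 6877, 6728 and 6808 in cKO. The groups overlapped (log2 fold change 0.033, 95% confidence interval −0.038 to 0.10, limma adjusted p = 0.495). Slamf6 (chr1:171917515-171953170, plus strand), which encodes the self-binding receptor Ly108, had 826, 733 and 729 normalized counts in WT and 880, 835 and 818 in cKO. WT sample 1 lay within the cKO range (log2 fold change 0.15, 95% confidence interval −0.0067 to 0.30, limma adjusted p = 0.131). Slamf6 passed with samples scaled to equal totals (log2 fold change 0.20, limma adjusted p = 0.0392) and with limma-voom (0.20, limma adjusted p = 0.0451). For both genes the exact permutation test, two-sided, gave p = 0.2.

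Slamf1 (chr1:171767127-171801184, plus strand), which encodes CD150, a receptor better known from T cells, macrophages and blood stem cells, was close to the lower limit of these data. It had 21.8, 10.7 and 13.7 normalized counts in the WT samples and 30.5, 7.27 and 18.3 in the cKO samples. The cKO samples lay on both sides of the WT range, and the highest and the lowest value of all 6 were both in cKO. The samples held 45 reads in all in WT (95% Poisson interval 32.8 to 60.2) and 58 in cKO (44.0 to 75). The log2 fold change was 0.12 (95% confidence interval −0.97 to 1.21, limma adjusted p = 0.888), so a difference was not detectable at this depth. Without WT sample 2 it was −0.096 and without cKO sample 1 it was −0.32. These read intervals cover counting error only.

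Of the adaptor genes, Sh2d1a and Sh2d1b1 fell, and Sh2d1a fell the most of the 4 genes that did. Sh2d1a (chrX:42502453-42529330, plus strand), the gene of SAP, had 3536, 3878 and 3775 normalized counts in the WT samples and 2963, 2849 and 2844 in the cKO samples. The highest cKO sample was far below the lowest WT sample. Sh2d1a averaged 3730 ± 175 in WT and 2885 ± 67.2 in cKO (SD, n = 3 each, a change of −22.6%, log2 fold change −0.37, standard error 0.0445, limma adjusted p = 2.29e-07). Of its exon bases, 1465 (26.6%) overlap Tenm1 on the opposite strand, a gene that is not among those listed. T and NKT cells also express Sh2d1a. The T and NKT marker sum was lower in cKO as given above, but of its 7 genes only Cd3g passed (means of 802 in WT and 478 in cKO). Cd8a (45.2 and 71.3) and Cd3e (151 and 166) had higher means in cKO, and the rest had lower means. The part of these cells in the fall of Sh2d1a was not tested.

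Sh2d1b1 (chr1:170277320-170286769, plus strand), the main EAT-2 gene in these samples, had 3269, 3219 and 3296 normalized counts in the WT samples and 2732, 2742 and 2514 in the cKO samples. No cKO sample reached the WT range. Sh2d1b1 fell by 18.4%, from 3261 ± 38.7 to 2663 ± 129 normalized counts (SD, n = 3 each, log2 fold change −0.29, standard error 0.0454, limma adjusted p = 1.01e-05). Levels of the SAP and EAT-2 mRNAs were also set against each other within samples. The log2 ratio of Sh2d1a to Sh2d1b1 was 0.11, 0.27 and 0.20 in the WT samples and 0.12, 0.055 and 0.18 in the cKO samples. The groups overlapped, and the mean ratio differed by −0.076 on the log2 scale (exact permutation test, two-sided, p = 0.3).

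Sh2d1b2 (chr1:170232749-170253608, plus strand), the neighbouring copy of the EAT-2 gene, had 37.7, 25 and 35.1 normalized counts in the WT samples and 6.10, 22.7 and 19.2 in the cKO samples. The cKO samples were all lower, with cKO sample 1 far below the other two. The samples held 95 reads in all in WT (95% Poisson interval 76.9 to 116) and 52 in cKO (38.8 to 68.2). The log2 fold change was −1.14 (95% confidence interval −2.09 to −0.19, limma unadjusted p = 0.0207, adjusted p = 0.0552). Under the limits stated in the study's methods, an unadjusted p under 0.05 and a log2 fold change of more than 1 in either direction, Sh2d1b2 was the only one of the 10 genes that met the rule, against 1.75% of all genes. It did not meet this rule without WT sample 1, without WT sample 3 or without cKO sample 1, and without the last the log2 fold change was −0.60. Without cKO sample 2 its adjusted p was 0.0272 and without cKO sample 3 it was 0.0445, and over all alternatives it ranged from 0.0272 to 0.319.

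The starts of the 2 EAT-2 genes are shown because they are near copies whose mRNA levels were far apart. The windows lie on the plus strand of GRCm38.p6, at chr1:170277068-170277367 for Sh2d1b1 and chr1:170232621-170232920 for Sh2d1b2, with capitals as above.
Sh2d1b1: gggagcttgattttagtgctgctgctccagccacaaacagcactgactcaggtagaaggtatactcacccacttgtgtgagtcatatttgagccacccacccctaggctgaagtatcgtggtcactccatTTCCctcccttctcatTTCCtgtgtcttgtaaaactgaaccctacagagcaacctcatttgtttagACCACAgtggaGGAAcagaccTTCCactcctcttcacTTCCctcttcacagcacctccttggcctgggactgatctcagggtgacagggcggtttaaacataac
Sh2d1b2: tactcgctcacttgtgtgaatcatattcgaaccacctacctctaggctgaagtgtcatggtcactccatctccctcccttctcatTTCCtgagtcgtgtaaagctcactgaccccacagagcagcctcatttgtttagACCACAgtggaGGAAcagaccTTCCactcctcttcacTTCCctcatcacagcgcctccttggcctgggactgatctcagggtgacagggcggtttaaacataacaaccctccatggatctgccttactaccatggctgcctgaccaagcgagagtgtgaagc
After a shift of 61 bases the windows aligned over 238 bases, of which 93.3% were identical. They held 5 and 4 ETS cores, 1 RUNX match each and 0 T-box matches. The longest coding transcripts of the copies (2544 and 2542 bases) aligned over 2433 bases with 91.1% identity. Of the distinct stretches of 150 bases in all annotated transcripts of each gene (1 for Sh2d1b1 and 2 for Sh2d1b2), 3.26% of those in Sh2d1b1 and 3.07% of those in Sh2d1b2 also occur in the other copy, and how reads matching both were treated is not given in the sources used here. Per kilobase of exon, Sh2d1b1 stood at 86.6, 129 and 93.7 times Sh2d1b2 in the WT samples and at 447, 121 and 131 times in the cKO samples, so that cKO sample 1 stood apart and the other two lay near the highest WT value. The log2 ratio of their normalized counts was 6.40, 6.95 and 6.51 in the WT samples and 8.59, 6.85 and 6.96 in the cKO samples. Its mean differed by 0.85 (exact permutation test, two-sided, p = 0.2), and by 0.29 without cKO sample 1. A small share of Sh2d1b1 reads placed on the other copy would be large beside its own reads, so the values of Sh2d1b2 are uncertain.

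**Figure D2:**
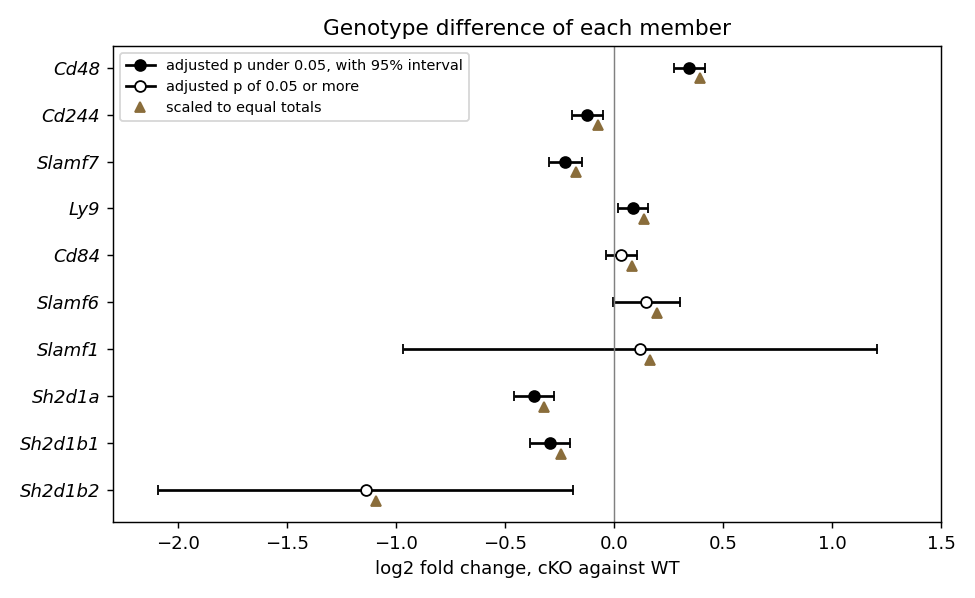
Log2 fold change of each gene in cKO against WT (horizontal axis), with 95% confidence intervals from 3 samples per genotype, filled where the adjusted p was under 0.05, and triangles for samples scaled to equal totals. Cd48 stands at 0.34 and Sh2d1a at −0.37 with narrow intervals, while the intervals of Slamf1 and Sh2d1b2 span more than 1 unit.

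To compare levels between the genes, normalized counts were divided by the merged exon length in kilobases. Cd48 was highest in WT, at 4916 ± 41.4 (SD, n = 3) normalized counts per kilobase, followed by Ly9 at 2762 ± 76.5 and Cd244 at 2010 ± 54.4. Sh2d1b1 (1282 ± 15.2), Slamf7 (1237 ± 26.8), Cd84 (1060 ± 14.0) and Sh2d1a (678 ± 31.9) formed the middle of the order on this scale. Slamf6 was lower, at 70.4 ± 5.08, and Sh2d1b2 (12.8 ± 2.65) and Slamf1 (2.50 ± 0.937) were lowest. No neighbours in this order overlapped across the 3 WT samples, the closest being Sh2d1b1 and Slamf7, whose means were 1.04-fold apart. Among all listed genes with an exon length, Cd48 stood at percentile 95.6, Sh2d1a at 71.8, Slamf6 at 30.0 and Slamf1 at 0.697 in WT.

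The choice of length bore on the order. With the longest coding transcript in place of merged exons, Sh2d1a moved from position 7 to position 3, at 3050 normalized counts per kilobase in WT, behind Cd48 (4929) and Ly9 (3671). In cKO, Cd48 stood at 6245 ± 110 (SD, n = 3) normalized counts per kilobase of merged exon and Cd244 at 1847 ± 43.0 (SD, n = 3). Slamf7 (1059 ± 11.0) and Sh2d1b1 (1047 ± 50.6) were then at nearly the same level.

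**Figure D3:**
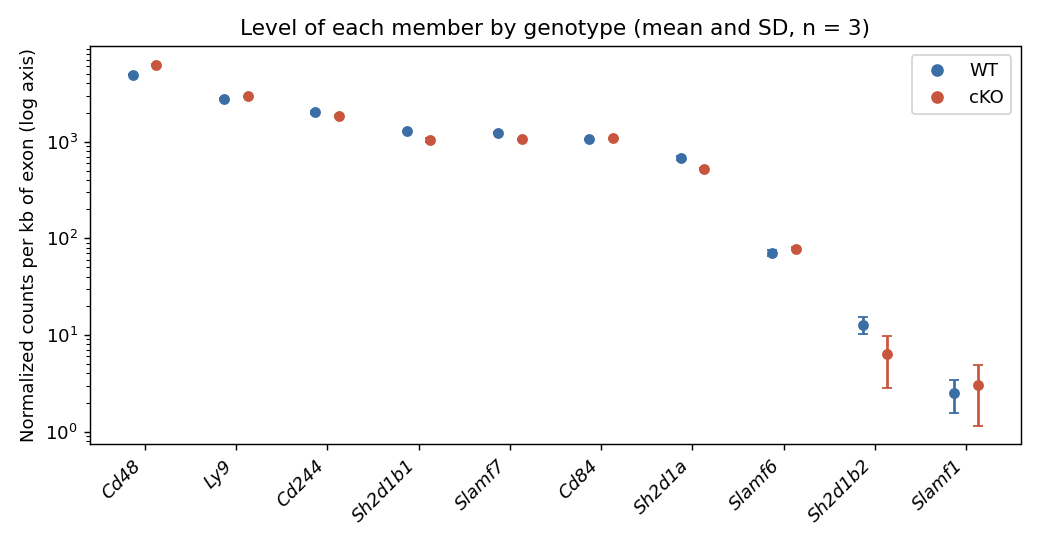
Normalized counts per kilobase of merged exon (log axis) of the 10 genes in the WT and cKO samples, ordered by the WT mean, from 3 samples per genotype. Cd48 leads at 4916 in WT and 6245 in cKO, 7 genes lie above 500, and Slamf6, Sh2d1b2 and Slamf1 lie far below.

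METTL3 methylates adenosines in a short sequence context of which GGACT is a frequent form in DNA letters. m6A itself was not analysed here, and the letters were only counted in the longest coding transcript of each gene in GENCODE vM21. Sh2d1b1 and Sh2d1b2 held 6 each, or 2.36 per kilobase. Slamf7 had 1.76 and Cd244 1.60 per kilobase, Slamf6 1.40, Slamf1 1.11, Cd84 0.874, Cd48 0.843 and Ly9 0.804. Sh2d1a held 0 in its 1223 bases. The merged exons of Sh2d1a cover 5505 bases, and those outside this transcript were not searched. Over 11918 genes with a coding transcript, 92.2% held at least 1, with a median of 1.05 per kilobase and quartiles of 0.635 and 1.52. Of the 4 genes that fell, Sh2d1b1, Slamf7 and Cd244 lay above the upper quartile and Sh2d1a held 0. Both genes that rose, Cd48 and Ly9, lay below the median, as did Cd84, and Sh2d1b2, which did not pass the test, lay above the upper quartile. No relation between the letters and the change was tested. The single match of Cd48 and the 6 of Sh2d1b1 are shown with 10 bases on each side, GGACT in capitals, since the former rose and the latter was the densest of the genes that passed.
Cd48, coding, A at base 751: ggagtatgttGGACTgcaacttggc
Sh2d1b1, 5′ leader, A at base 13: ccttggcctgGGACTgatctcaggg
Sh2d1b1, 3′ part, A at base 930: cacattacctGGACTctctattgag
Sh2d1b1, 3′ part, A at base 1832: cctaagtgcaGGACTtacaggcaca
Sh2d1b1, 3′ part, A at base 2202: taccaatgtgGGACTacttaaagat
Sh2d1b1, 3′ part, A at base 2336: taggaattaaGGACTgaaaacattt
Sh2d1b1, 3′ part, A at base 2358: tttttctgaaGGACTggctgagttc
Bases are counted from 1 at the 5′ end of the transcript, and the 3′ part is the stretch after the stop codon. Of the 6 sites of Sh2d1b1, 1, that at base 13, was identical over 25 bases in Sh2d1b2.

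Genes of proteins that act below these receptors changed in both directions. Of 26 genes of kinases, phosphatases and adaptors known to work with SLAM family receptors, 7 rose and 8 fell, which is 57.7% against 36.6% of all genes. With a minimum of 1 CPM in at least 3 samples, 16 of the 26 passed, against 5302 of 11817 genes. None of the 26 met the limits of the study's methods, and the median absolute log2 fold change was 0.13 against 0.17 over all genes. Nck1, an adaptor that links receptors to the actin cytoskeleton, rose from 2570 ± 135 to 3397 ± 89.0 normalized counts (SD, n = 3 each, log2 fold change 0.40, standard error 0.0465, limma adjusted p = 1.14e-07). Pik3cd, the catalytic p110 delta subunit of PI3-kinase, rose from 37849 ± 680 to 49077 ± 743 normalized counts (SD, n = 3 each, log2 fold change 0.37, limma adjusted p = 8.71e-11). Prkcq, protein kinase C theta, which is recruited by the SAP and Fyn pair in T cells, rose by 0.24 on the log2 scale (limma adjusted p = 7.18e-07).

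Among the falls, the kinase gene Fgr, of the Src family, went from 1838 ± 42.2 to 1475 ± 142 normalized counts (SD, n = 3 each, log2 fold change −0.32, limma adjusted p = 0.000146). The membrane scaffold gene Lat fell by 0.27 on the log2 scale (limma adjusted p = 7.67e-06). Plcg2, the phospholipase C gamma that drives calcium release below activating NK receptors, fell by 0.25 (limma adjusted p = 1.07e-06). Fyn, the kinase that SAP brings to the receptors, had 45112 ± 611 normalized counts in WT and 46985 ± 669 in cKO (SD, n = 3 each, log2 fold change 0.059, 95% confidence interval −0.00042 to 0.12, limma adjusted p = 0.116). Ptpn6, the gene of the phosphatase SHP-1, had 7971 ± 218 in WT and 7534 ± 129 in cKO (SD, n = 3 each, log2 fold change −0.081, limma adjusted p = 0.0723). The Fyn and Ptpn6 samples did not overlap between genotypes, and neither gene passed the test. Other phosphatase genes of the list did pass, in opposite directions. Ptpn11, the gene of SHP-2, fell (log2 fold change −0.12, limma adjusted p = 0.0122) and Inpp5d rose (0.14, limma adjusted p = 0.00132). Fyn passed with samples scaled to equal totals (log2 fold change 0.11, limma adjusted p = 0.00176) and with limma-voom (0.11, limma adjusted p = 0.000799).

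**Figure D4:**
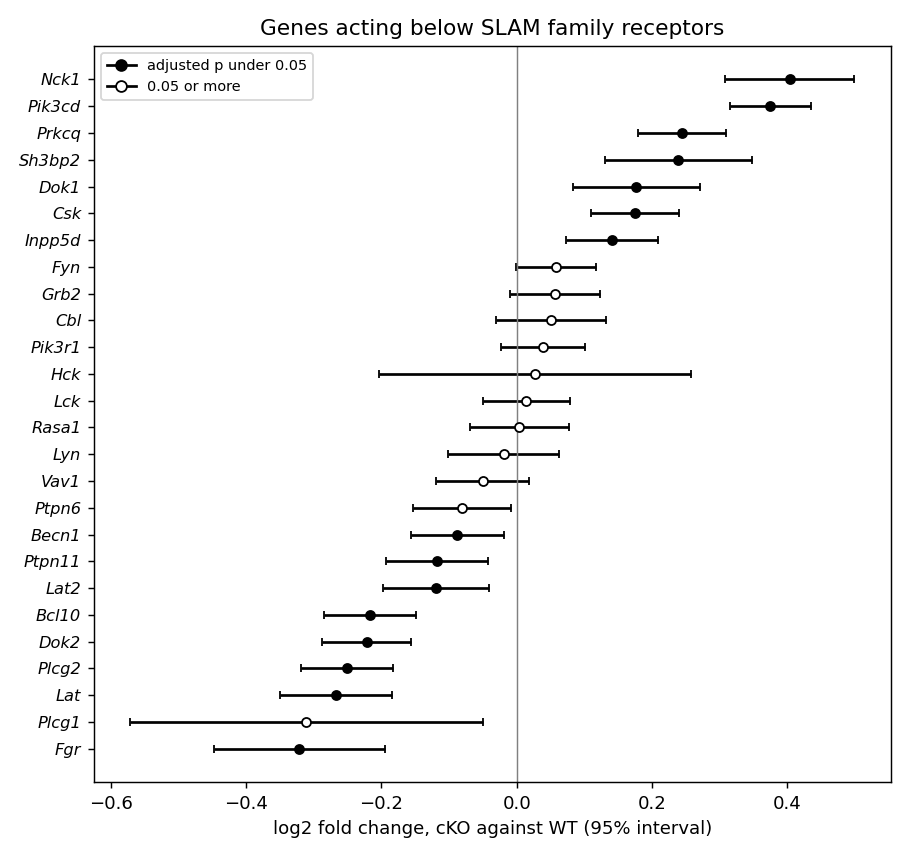
Log2 fold change in cKO against WT (horizontal axis) of the 26 signalling genes, with 95% confidence intervals from 3 samples per genotype and filled points where the adjusted p was under 0.05. Nck1 (0.40) and Pik3cd (0.37) stand at one end and Fgr (−0.32) at the other.

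The 7 receptor genes lie on chromosome 1 of GRCm38, within 394.0 kb from 171559193 to 171953170, and the EAT-2 genes lie on the same chromosome within 54.0 kb from 170232749 to 170286769. Of 43 other listed genes within 500 kb of these spans, 8 rose and 7 fell, which is 34.9% against 36.6% of all genes. Tstd1, which encodes a small sulfurtransferase-like protein, had the highest log2 fold change among them, from 16.8 ± 2.64 to 66.1 ± 14.5 normalized counts (SD, n = 3 each, 1.90, standard error 0.342, limma adjusted p = 7.44e-05). It was the only 1 of the 43 that met the limits of the study's methods, and 200 of its exon bases (23.1%) are shared with Usf1 on the same strand. Usf1 rose from 3768 ± 119 to 4520 ± 156 normalized counts (SD, n = 3 each, log2 fold change 0.26, limma adjusted p = 1.34e-05). The part of Usf1 reads in the rise of Tstd1 was not tested. Vangl2, a planar cell polarity gene, also rose at low counts (37.0 ± 6.00 to 63.5 ± 11.0, SD, n = 3, limma adjusted p = 0.0394), a call that was lost without WT sample 1 (adjusted p = 0.0923), WT sample 2 (0.0923), cKO sample 1 (0.142) or cKO sample 3 (0.125). The immunoglobulin-family gene Igsf8 rose by 0.49 on the log2 scale (limma adjusted p = 5.11e-08). Cfap126, a cilium gene, fell by 0.49 (limma adjusted p = 0.00912), and Sdhc, a subunit of succinate dehydrogenase, fell by 0.37 (limma adjusted p = 1.51e-06). Fcer1g, the signalling chain of CD16 and other activating NK receptors, fell from 36444 ± 903 to 30277 ± 782 normalized counts (SD, n = 3 each, log2 fold change −0.27, limma adjusted p = 1.03e-07).

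**Figure D5:**
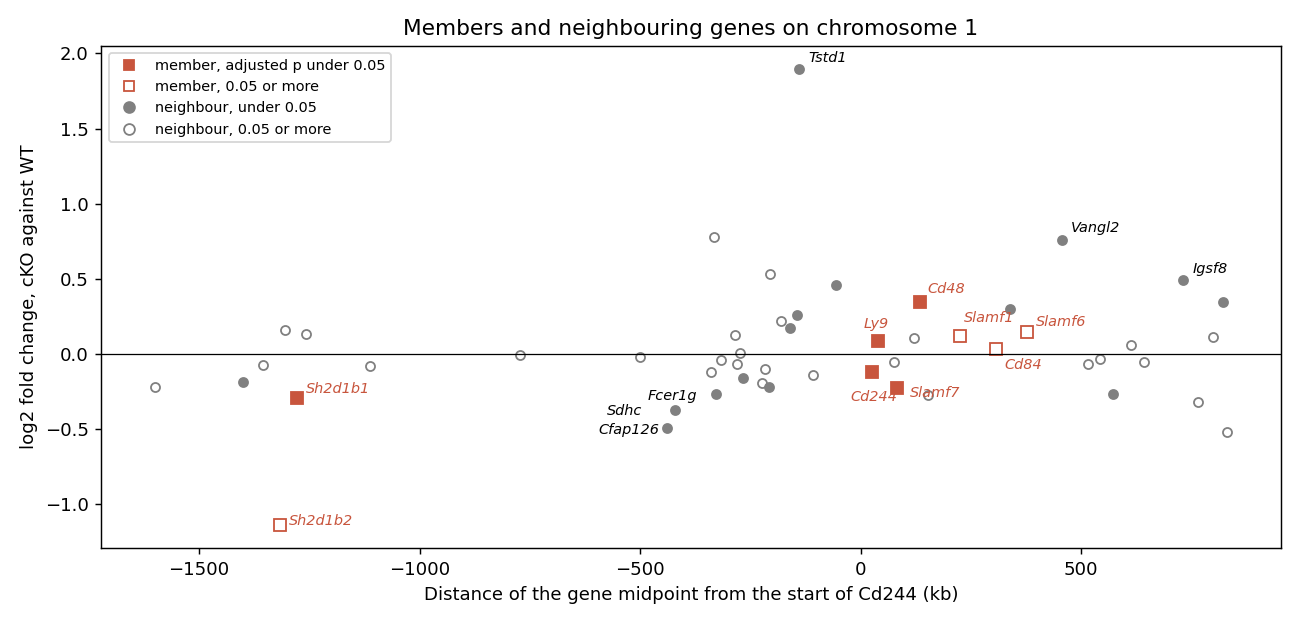
Log2 fold change in cKO against WT (vertical axis) of the 9 SLAM and EAT-2 genes on chromosome 1 (squares) and their 43 listed neighbours (circles) by distance in kb of the gene midpoint from the start of Cd244, filled where the adjusted p was under 0.05. Cd48 (0.34) and Slamf7 (−0.22) lie close together on opposite sides of 0, and Tstd1 (1.90) stands highest.

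Relatives of the family were measured as well. Cd2, a receptor of the same wider family that binds CD48 in the mouse, had 24970, 25300 and 24569 normalized counts in the WT samples and 20915, 21975 and 20858 in the cKO samples. It fell without overlap (log2 fold change −0.23, standard error 0.0309, limma adjusted p = 1.15e-06), so that both mouse binding partners of CD48 had lower and Cd48 itself higher mRNA values in cKO. The call of Cd244 was lost with equal totals and with limma-voom, as given above. Slamf8 had 39.5 ± 13.9 normalized counts in WT and 31.1 ± 1.38 in cKO (SD, n = 3 each, limma adjusted p = 0.581). Slamf9 is not among the listed genes. Outside the family, correlation with Sh2d1a was ranked over genes with a mean of at least 1 CPM. Among these, the genes whose log2 values followed those of Sh2d1a most closely over the 6 samples were Vasp (Pearson r = 0.998), H2-K2 (0.998) and Rell1 (0.997). These correlations describe 6 libraries that differ by genotype, and no test was made of them.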

How the data were processed

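The mRNA-seq samples of NK cells from spleen were analysed, 3 per genotype, grouped by the labels. Per the study's methods and the submitters' processing notes, reads were aligned to GRCm38 with HISAT2 (2.0.5 in the notes) and counted per gene with featureCounts (1.5.0-p3). The authors deposited a signal, the gene counts divided by the DESeq2 (1.16.1) size factor of each sample. Every value was a whole multiple of 1 step per sample (tolerance 0.02 of a read), which gave the reads; the depth of whole libraries is unknown. The authors' mean, log2 fold changes, standard errors, Wald statistics, p-values and adjusted p-values were not used.

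Here log2(value + 1) was fitted by limma 3.58.1 with a variance trend in R 4.3.3, genotype only. A filter of at least 1 in at least 3 samples removed 0 genes. The steps were tested on simulated data. Single genes and ratios were also compared by exact permutation over the 20 assignments. Intervals are at the 95% level. Positions, exon lengths and transcripts are from GENCODE vM21 (98.1% of symbols matched, and all 10 genes) and promoters from RefSeq GRCm38.p6, which held 8 of the 10 genes. Biopython 1.88 aligned the EAT-2 copies, and matplotlib 3.10.9 drew the plots.

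The genes, the lists and the tests were chosen with earlier results of these data known. Outside the 10 genes, those named were Mettl3, the relatives Cd2, Slamf8 and Slamf9, and the 3 largest called rises and falls of the signalling list and of the neighbours. The 3 genes with a mean of at least 1 CPM most correlated with the called gene of the largest change were also named. Fyn, Ptpn6, Ptpn11, Inpp5d, Cd3g, Cd3e, Cd8a, Ncr1, Usf1, Gm37787 and Tenm1 were named after values were seen. Alternatives were a pseudocount of 0.1, no filter, at least 1 CPM in at least 3 samples, equal totals, the replicate block, each replicate left out, and, added after seeing the data, limma-voom and lengths of the longest coding transcript. Count tests were planned and not run here.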

Additional observations from a re-analysis of the deposited data

How the results depend on the processing

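The number of the 10 genes past the adjusted threshold was 6 under each setting that kept all samples and 5 to 6 with each replicate left out. Over all genes the number was 5299 to 5543 with all samples kept and 4417 to 4922 with each replicate left out. These are of 14490 genes tested, except with the minimum of 1 CPM. There 5302 of 11817 genes passed, and 8 of the 10 genes were tested. Cd48, Slamf7, Sh2d1a and Sh2d1b1 passed in the same direction under all 12 alternatives; Cd244 passed in 10, Ly9 in 7, Slamf6 in 2 and Cd84 in 0 of 12, and Sh2d1b2 in 2 of 11. With a minimum of 1 CPM in 3 samples, Slamf1 and Sh2d1b2 were not tested, and 0 genes met the limits of the study's methods, against 1 otherwise. With each replicate left out, this number was 0 to 1. The log2 fold change of Slamf1 reversed to −0.096 without WT replicate 2 and −0.32 without cKO replicate 1, within −0.32 to 0.64 over all replicates left out; the cause was not tested. With equal totals, WT levels per kilobase of merged exon were lower for all 10 genes by nearly the same share (changes of −1.73% to −1.68%), which exceeded 1 SD for those with the tightest replicates, Cd48 (4833), Cd84 (1042) and Sh2d1b1 (1260.4). With the longest coding transcript, levels moved to 3671 for Ly9, 3050 for Sh2d1a, 2607 for Cd244, 1936 for Cd84, 1424 for Slamf7, 133 for Slamf6 and 5.72 for Slamf1. Of the other named genes, Vangl2 passed in 7 of 11 alternatives, Fyn in 2 and Ptpn6 in 0 of 12, and Slamf8 in 0 of 11. The signalling genes past the threshold numbered 12 to 16 and the neighbours 12 to 17 over all alternatives. WT and cKO samples of the same number correlated by −0.024, 0.12 and 0.045 in their deviations from the genotype means, so the numbers were not taken as pairs; with the replicate block, 5543 genes were called in place of 5307, and 6 of the 10 genes. For Slamf1 and Sh2d1b2, the low reads limit what could be detected, and 3 samples per genotype leave the spread of single genes poorly known.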
